A study of Mus musculus with 6 samples.

Results

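Letmd1 lies on mouse chromosome 15, and 10 genes within 1 Mb of it are described here in brown adipose tissue (BAT): Smarcd1, Cox14, Lima1, Larp4, Atf1, Mettl7a1 and Mettl7a2 on the side of lower coordinates, and Bin2, Cela1 and Galnt6 on the side of higher coordinates. They are 10 of the 53 genes of the count data that fall within 1 Mb of Letmd1, and 10 of 23282 genes in all. The 10 were selected by position and by their counts in Letmd1 knockout (KO) against wild-type (WT) mice, so their differences between the genotypes are given as a description, with no test. RNA came from BAT of 6 male mice at 5 weeks of age, 3 WT and 3 Letmd1 KO, all labelled as strain C57BL/6N. How far the KO line was backcrossed is not given in the sources used here. The KO mice carried a homozygous, body-wide knockout-first allele that came from 1 embryonic stem cell clone. In it a cassette with lacZ and a neomycin resistance gene between FRT sites sits in an intron of Letmd1, ahead of exons that are flanked by loxP sites. The WT mice carried neither the cassette nor the loxP sites. RNA was measured with QuantSeq, which makes reads next to the 3′ end of polyadenylated transcripts. Values are given as CPM, read counts brought to a common library size after scaling by the trimmed mean of M-values (TMM), and a log2 fold change is the KO level over the WT level.

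LETMD1 is a mitochondrial protein, and BAT is a tissue that makes heat through the uncoupling protein UCP1 in mitochondria. A targeted gene is inherited together with the stretch of chromosome around it, and genes close together on a chromosome can share promoters, enhancers or the reads of overlapping transcripts. Homozygous KO mice therefore differ from WT mice in the gene product, in the inserted cassette and in any linked sequence at once. In 2 genotypes these cannot be told apart.

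The libraries held 6669577 to 14574273 counts per mouse. Letmd1 had 5658, 6490 and 5266 counts in WT replicates 1 to 3 and 0, 0 and 1 in the KO replicates, which matched the labels. Its WT level of 662 CPM ± 44.7 (SD, n = 3) compares with that 1 count over the 3 KO libraries, at a floor of 0.176 to 0.397 CPM for 3 counts. Of 12995 genes tested with edgeR's quasi-likelihood test, 3082 were higher and 2896 lower in KO at an adjusted p under 0.05. The summed level of 10 brown adipocyte markers was 42969 to 48973 CPM in WT and 13263 to 16691 CPM in KO mice, that of 13 macrophage markers 187.5 to 264 CPM and 1503 to 2660 CPM, and that of 13 skeletal muscle markers 8.34 to 397 CPM and 304 to 1214 CPM. Of these lists, 9 brown adipocyte markers fell and none rose, all 12 macrophage markers tested rose, and 2 muscle markers rose and none fell. The remaining macrophage marker, Mertk, was not tested and had a mean of 0.87 CPM in WT and 0.39 CPM in KO mice. Among markers of other cells, 1 of 6 endothelial genes rose and 3 fell, 3 of 4 Schwann cell genes rose, both lymphocyte genes tested rose, and the 3 neutrophil genes tested had adjusted p-values of 0.245 to 0.962. Both lymphocyte genes, the 2 muscle markers that rose and the macrophage marker Fcgr1 passed the filter on low counts only through the KO mice. None of the markers on these lists was at 0 in all mice. Counts come from whole tissue, so fewer cells of a type and less RNA per cell cannot be told apart.

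Among the 10 neighbours, 5 were lower in KO with an adjusted p under 0.05 (Smarcd1, Cox14, Larp4, Mettl7a1 and Mettl7a2), where 22.3% of all genes tested were lower. Lima1, Bin2, Cela1 and Galnt6, 4 of the 10, were higher by that rule, where 23.7% of all genes tested were higher. Atf1 did not pass it. All 10 had ranges that did not overlap between the 3 WT and the 3 KO mice, against 57.3% of all genes tested. These shares were fixed by how the 10 were selected and show nothing further about them. The family counts below include selected genes where stated, and the shares of all genes to set beside them are the same 22.3% lower and 23.7% higher. All 10 passed the filter on low counts, Cela1 and Galnt6 only through the KO mice. In chromosome order the 7 genes below Letmd1 included 5 lower and 1 higher, and the 3 above it were all higher.

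**Figure D1:**
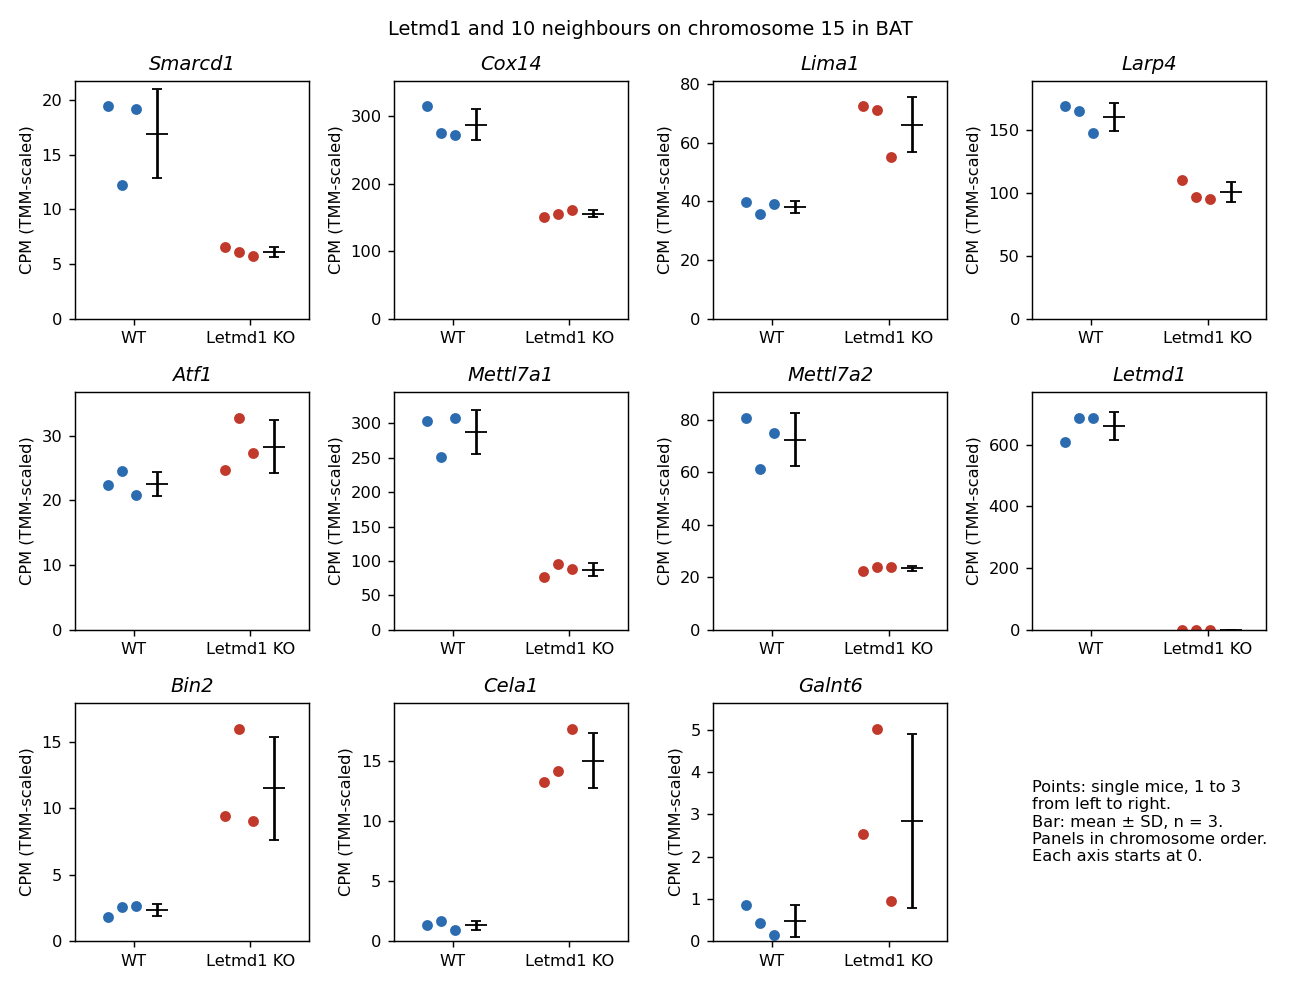
TMM-scaled CPM (y axes, each from 0) of Letmd1 and its 10 neighbours in 3 WT (blue) and 3 Letmd1 KO (red) mice, in chromosome order, with the mean ± SD beside the points. In each panel the 3 WT mice and the 3 KO mice do not overlap, from Smarcd1 at 755 kb below Letmd1 (16.9 against 6.13 CPM) to Galnt6 at 213 kb above it (0.47 against 2.83 CPM).

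Mettl7a1 and Mettl7a2 are the nearest of the 10 to Letmd1, at 140 kb and 107 kb below its gene body. They encode methyltransferase-like proteins anchored in the membranes of the endoplasmic reticulum and of lipid droplets, and are neighbouring copies of 1 ancestral gene. Their RefSeq promoters (GRCm38.p6, 250 bases before to 50 after the start, plus strand) are shown because the copies had similar log2 fold changes. Capitals mark the 1 run of at least 15 bases that both share without a difference, which is 40 bases long. In Mettl7a1 this run lies wholly after the start, in transcribed sequence, and in Mettl7a2 it spans the start.
Mettl7a1, chr15:100304567-100304866: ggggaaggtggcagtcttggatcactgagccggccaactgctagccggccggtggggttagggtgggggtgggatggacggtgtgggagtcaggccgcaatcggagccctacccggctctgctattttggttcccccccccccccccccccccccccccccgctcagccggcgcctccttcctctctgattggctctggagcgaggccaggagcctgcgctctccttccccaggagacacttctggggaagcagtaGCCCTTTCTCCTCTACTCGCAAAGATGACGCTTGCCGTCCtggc
Mettl7a2, chr15:100352950-100353249: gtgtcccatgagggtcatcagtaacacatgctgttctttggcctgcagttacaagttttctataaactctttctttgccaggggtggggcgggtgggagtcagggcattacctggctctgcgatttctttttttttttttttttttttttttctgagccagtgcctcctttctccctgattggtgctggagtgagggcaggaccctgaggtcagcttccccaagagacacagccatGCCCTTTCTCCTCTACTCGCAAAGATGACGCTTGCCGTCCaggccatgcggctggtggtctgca
Aligned, the promoters were identical at 186 of 262 positions (71.0%). The last 500 bases of the transcripts, where QuantSeq reads fall, were identical at 407 of 432 aligned positions (94.2%). Of the 426 stretches of 75 bases, the read length, in each of these ends, 72 (16.9%) were found unchanged in the other copy, so part of the reads could not be assigned to 1 of them. The other 8 neighbours and Letmd1 shared no such stretch with another gene.

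Mettl7a1 spans chr15:100304140-100328662 (GRCm38, plus strand). It had 303.9, 250.3 and 308.2 CPM in WT replicates 1 to 3 and 77.0, 95.8 and 87.9 CPM in KO replicates 1 to 3. Every KO mouse was far under every WT mouse. The mean went from 287 ± 32.3 to 86.9 ± 9.43 CPM (SD, n = 3 each), a log2 fold change of −1.72 (SE 0.13). Mettl7a2, at chr15:100353200-100361840 on the same strand, had 80.9, 61.2 and 74.97 CPM in WT and 22.3, 24.1 and 23.8 CPM in KO mice. WT replicate 2 was the lowest WT mouse for both copies, and the KO mice were closely grouped. The mean of Mettl7a2 went from 72.3 ± 10.1 to 23.4 ± 0.95 CPM, a log2 fold change of −1.62 (SE 0.14). Mettl7a2 lies inside the longer gene Methig1 on the same strand, which had 6 counts over all 6 libraries. The remaining copy between them, Mettl7a3, had 1, 1 and 6 counts in WT and 0, 1 and 0 in KO mice and was not tested. Mettl7b, the family member on another chromosome, rose from 8.85 ± 2.02 to 14.1 ± 2.02 CPM (log2 fold change 0.66, SE 0.23, adjusted p = 0.0362).

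Smarcd1 encodes BAF60a, an accessory subunit of the SWI/SNF (BAF) chromatin remodelling complex that bridges the complex to transcription factors. It lies at chr15:99702129-99713991, on the plus strand and 755 kb below Letmd1. It had 19.4, 12.2 and 19.2 CPM in WT and 6.59, 6.09 and 5.70 CPM in KO mice. WT replicate 2 was lower than the other WT mice but still above all KO mice. On average Smarcd1 went from 16.9 ± 4.097 to 6.13 ± 0.45 CPM, a log2 fold change of −1.44 (SE 0.23). Of 23 BAF subunit genes tested, Smarcd1 included, 3 rose and 7 fell, with a median log2 fold change of 0.081 beside 0.033 over all genes. Smarcd1, which was selected on this contrast, was the lowest of the list. The paralog Smarcd2 fell from 95.5 ± 4.11 to 57.2 ± 5.38 CPM (log2 fold change −0.74, SE 0.11, adjusted p = 0.00064), and Smarcd3 fell by 0.67 on the log2 scale (SE 0.22, adjusted p = 0.0336). The core subunit gene Smarcb1 had the most positive value (0.63, SE 0.11, adjusted p = 0.00131).

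Cox14 is the second gene above Smarcd1, at chr15:99725618-99728136 on the plus strand, 741 kb below Letmd1. It encodes a small inner membrane protein that, with COA3, binds newly made COX1 during the assembly of cytochrome c oxidase (complex IV of the respiratory chain). Its RefSeq promoter is shown as an example of those over the CpG cut used below, with an ETS element in capitals 34 bases after the start. The ratio of observed to expected CpG in it was 0.679, over the cut of 0.6 but under the median of 0.744 for promoters of tested genes.
Cox14, chr15:99725368-99725667, plus strand: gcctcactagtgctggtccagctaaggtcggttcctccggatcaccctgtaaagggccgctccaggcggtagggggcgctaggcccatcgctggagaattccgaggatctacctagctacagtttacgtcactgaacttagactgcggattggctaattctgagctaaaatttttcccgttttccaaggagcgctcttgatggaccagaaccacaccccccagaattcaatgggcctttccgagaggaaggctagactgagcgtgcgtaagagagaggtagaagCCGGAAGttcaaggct
Cox14 had 314.6, 275.3 and 272.9 CPM in WT and 150.9, 155.2 and 160.6 CPM in KO mice. The KO mice lay close to each other, and the lowest WT mouse was well above them. Its mean was 288 ± 23.4 CPM in WT and 156 ± 4.84 CPM in KO mice, a log2 fold change of −0.89 (SE 0.10). Complex IV assembly genes shared this direction across the genome. Of 22 tested, Cox14 included, 15 fell and none rose, with a median log2 fold change of −0.72. Pet100 had the most negative value (−1.91, SE 0.19, adjusted p = 5.66e-05) and Tmem177 the value nearest to 0 (−0.06, SE 0.22, adjusted p = 0.845). Coa3, whose product works together with COX14, fell from 138 ± 11.1 to 81.5 ± 4.34 CPM (log2 fold change −0.75, SE 0.11, adjusted p = 0.000453). The brown adipocyte markers were lower in the same mice, and their part in the level of Cox14 was not tested.

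Gpd1 stands between Smarcd1 and Cox14 on the same strand, 3523 bases after the end of Smarcd1 and 612 bases before the start of Cox14. It encodes the cytosolic glycerol-3-phosphate dehydrogenase, which makes the glycerol backbone of triglycerides. Gpd1 had 5738, 5826 and 7334 CPM in WT and 708.7, 743.6 and 816 CPM in KO mice. It fell further than any of the 10 neighbours, with a log2 fold change of −3.06 (SE 0.17, adjusted p = 3.41e-06). The 3 consecutive genes Smarcd1, Gpd1 and Cox14 were thus each lower in KO.

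Larp4 encodes a La-related protein that binds poly(A) tails and the poly(A)-binding protein and stabilises mRNA. It spans chr15:99970065-100016358 on the plus strand, 453 kb below Letmd1. It had 168.6, 165.1 and 147.6 CPM in WT and 110.1, 96.7 and 95.1 CPM in KO mice. The lowest WT mouse and the highest KO mouse were apart by more than the range within either genotype. Larp4 averaged 160 ± 11.3 CPM in WT and 101 ± 8.23 CPM in KO mice, a log2 fold change of −0.67 (SE 0.11), which was the smallest of the 5 lower genes. Its closest paralog, Larp4b, was at 86.0 ± 8.77 CPM in WT and 85.2 ± 2.89 CPM in KO mice (log2 fold change −0.01, SE 0.11, adjusted p = 0.926). Larp1b had a log2 fold change of −0.26 (SE 0.11, adjusted p = 0.0669). Of 6 La-related genes tested, Larp4 included, the one called lower was Larp4 itself, which was selected on this contrast. Larp7, which binds the 7SK RNA, was the one that rose (0.77, SE 0.17, adjusted p = 0.00504). An antisense gene, 2310068J16Rik, overlaps Larp4 and had 79 counts over all libraries. Smarcd1, Lima1 and Galnt6 overlap antisense genes as well, which were not analysed here. Whether counting used the strand of the reads is not given in the sources used here.

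Lima1 encodes EPLIN, a LIM domain protein that bundles and stabilises actin filaments. It is the only one of the 7 neighbours below Letmd1 that was higher in KO by the rule above, and lies on the minus strand at chr15:99778470-99875456, 594 kb away. It had 39.8, 35.7 and 39.0 CPM in WT and 72.4, 71.1 and 55.3 CPM in KO mice. KO replicate 3 was lower than the other KO mice and still above all WT mice. Lima1 averaged 38.2 ± 2.15 CPM in WT and 66.3 ± 9.53 CPM in KO mice, a log2 fold change of 0.79 (SE 0.14). Among 18 LIM domain actin regulators tested, Lima1 included, 8 rose and 5 fell, with a median of 0.45. Pdlim4 had the most positive value (1.92, SE 0.32, adjusted p = 0.000898) and Lmo7 the most negative (−0.86, SE 0.18, adjusted p = 0.0035).

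Atf1 encodes a bZIP transcription factor of the CREB family, which binds cyclic AMP response elements. Cyclic AMP is the messenger by which noradrenaline turns on heat production in BAT. Atf1 spans chr15:100227819-100261244 on the plus strand, 208 kb below Letmd1. It had 22.4, 24.5 and 20.9 CPM in WT and 24.7, 32.8 and 27.4 CPM in KO mice. The highest WT mouse and the lowest KO mouse nearly met, and KO replicate 2 was the highest. The mean went from 22.6 ± 1.82 to 28.3 ± 4.12 CPM, a log2 fold change of 0.32 (SE 0.15) that did not pass the threshold. Of 8 genes of the CREB family and its coactivators tested, Atf1 included, 1 rose and 1 fell. The coactivator gene Crtc3 was the one that rose (0.58, SE 0.19, adjusted p = 0.0279) and Ep300, another coactivator gene, the one that fell (−0.35, SE 0.12, adjusted p = 0.0324). Crtc1 had the most positive value (0.89, SE 0.37, adjusted p = 0.0645). Creb1, the closest paralog, was at 73.9 ± 1.26 CPM in WT and 74.4 ± 3.67 CPM in KO mice (log2 fold change 0.01, SE 0.10, adjusted p = 0.93).

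Bin2, Cela1 and Galnt6 follow one another on the minus strand above Letmd1, with 4867 bases between Bin2 and Cela1 and 3891 bases between Cela1 and Galnt6. All 3 were low in WT mice, with 1 to 24 counts per library, and higher in KO mice. Bin2 encodes a BAR domain protein found mainly in white blood cells, where it shapes membranes at podosomes. It lies at chr15:100641077-100669553, 162 kb from Letmd1. It had 1.83, 2.54 and 2.61 CPM in WT and 9.45, 16.0 and 9.06 CPM in KO mice. KO replicate 2 was the highest, and the lowest KO mouse was still well above all WT mice. On average Bin2 went from 2.33 ± 0.43 to 11.5 ± 3.91 CPM, a log2 fold change of 2.20 (SE 0.32). Of its family, Bin3 rose from 8.65 ± 2.22 to 14.4 ± 1.97 CPM (log2 fold change 0.72, SE 0.23, adjusted p = 0.0256). Bin1 had a log2 fold change of 0.48 (SE 0.21, adjusted p = 0.0867). KO replicate 2, the mouse with the most Bin2, also had the highest summed level of the macrophage markers (2660 CPM, against 1709 and 1503 CPM in KO replicates 1 and 3). The part of macrophages in the level of Bin2 was not tested.

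Cela1 encodes a serine protease of the elastase family, whose members are best known as digestive enzymes of the exocrine pancreas. It spans chr15:100674421-100687921, 195 kb from Letmd1. Its RefSeq promoter is shown because it is the one of this set with a TATA box (TATAAA, in capitals) at the usual distance from the start, 27 bases before it.
Cela1, chr15:100687871-100688170, minus strand: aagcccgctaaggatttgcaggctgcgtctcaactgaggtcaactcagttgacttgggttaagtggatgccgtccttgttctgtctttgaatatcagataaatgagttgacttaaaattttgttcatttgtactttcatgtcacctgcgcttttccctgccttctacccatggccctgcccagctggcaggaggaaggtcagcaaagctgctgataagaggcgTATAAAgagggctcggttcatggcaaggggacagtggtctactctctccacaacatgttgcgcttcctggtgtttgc
Cela1 had 12, 16 and 7 counts in WT and 121, 107 and 301 counts in KO libraries, or 1.29, 1.70 and 0.91 CPM and 13.3, 14.2 and 17.7 CPM. The KO mice were close to each other, and no WT mouse came near them. The mean went from 1.30 ± 0.39 to 15.1 ± 2.33 CPM, a log2 fold change of 3.34 (SE 0.28), the largest of the 10 in either direction. No other elastase was tested. Cela2a, Cela3b and Ctrc had 0 counts in all 6 libraries, and Cela3a had 2 counts in all. Of 6 further genes of the pancreatic acinar cell, 5 had 0 counts in every mouse and Amy2b had 1 count. The order of the KO mice for Cela1 differed from that for Bin2, since KO replicate 3 was highest for Cela1 and lowest for Bin2.

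Galnt6 encodes a Golgi enzyme that attaches the first sugar, N-acetylgalactosamine, to proteins in mucin-type O-glycosylation. It lies at chr15:100691813-100729376, 213 kb from Letmd1. It had 8, 4 and 1 counts in WT and 23, 38 and 16 counts in KO libraries, or 0.86, 0.42 and 0.13 CPM and 2.53, 5.03 and 0.94 CPM. The lowest KO mouse and the highest WT mouse nearly met. The mean went from 0.47 ± 0.37 to 2.83 ± 2.06 CPM, with a coefficient of variation of 78.0% in WT and 72.8% in KO mice, and a log2 fold change of 2.09 (SE 0.77). Without KO replicate 2 the log2 fold change was 1.47, and without WT replicate 1 it was 2.58. Galnt6 is thus the least precisely measured of the 10. Of 11 genes of GalNAc transferases tested, Galnt6 included, 5 rose and none fell, with a median of 0.27. Of those that rose, Galnt6, Galnt9 and Galnt12 passed the filter on low counts only through the KO mice. They were thus tested only because of their KO level. Galnt9 had the most positive value (2.16, SE 0.79, adjusted p = 0.0122), from a WT level of 0.20 CPM, and Galnt18 the most negative (−0.24, SE 0.25, adjusted p = 0.455). KO replicate 2 was again the highest mouse, as for Bin2 and for the macrophage marker sum, and the part of macrophages was not tested.

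**Figure D2:**
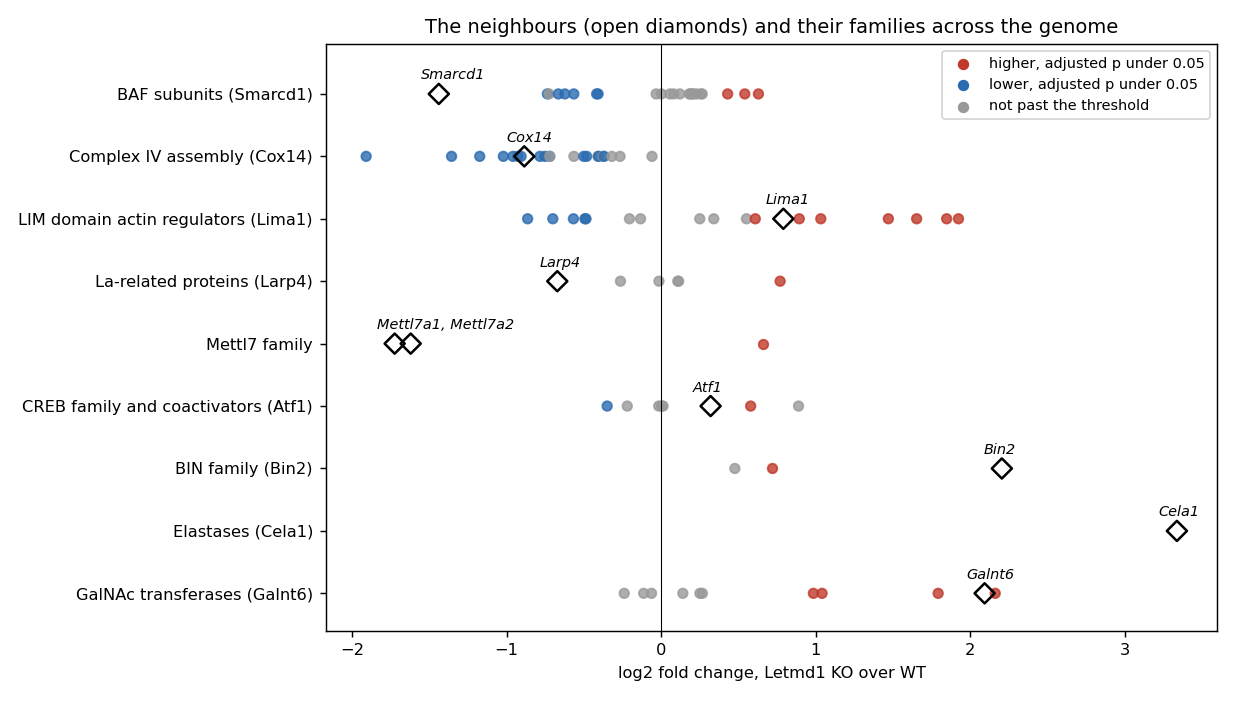
Log2 fold change, Letmd1 KO over WT (x axis), of the genes tested in the family of each neighbour (rows). Open diamonds are the 10 neighbours and filled points other members, red or blue where an adjusted p was under 0.05 and grey otherwise. Cox14 lies among complex IV assembly genes that are all below 0, while Mettl7a1 and Mettl7a2 lie at −1.72 and −1.62 with Mettl7b at 0.66.

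Sequences upstream of the neighbours were compared next. RefSeq held a promoter for 9 of the 10, the exception being Bin2, and Galnt6 had a further start site. The ratio of observed to expected CpG was at least 0.6 in the first promoter of 5 of the 9 (Smarcd1 0.917, Cox14 0.679, Larp4 0.985, Atf1 0.935 and Galnt6 0.772), as in 67.3% of 12515 promoters of tested genes. It was lower for Mettl7a1 (0.448), Mettl7a2 (0.304), Cela1 (0.390) and Lima1 (0.075). The Lima1 promoter, chr15:99820100-99820399, lies inside the gene, which is on the minus strand and reaches up to 99875456. The Larp4 promoter, chr15:99972530-99972829, and the Mettl7a1 promoter also lie inside their genes, which start at 99970065 and 100304140. So does the further Galnt6 promoter. Both CpG-rich and CpG-poor promoters were thus found among the lower and among the higher genes. The ETS element CCGGAAG was found in Cox14 and, 31 bases before the start, in Larp4, and also in Letmd1 on the opposite strand. It occurred in 16.8% of the promoters of tested genes. TATAAA was found in Cela1 and, 190 bases before the start, in Mettl7a2, against 7.38% of the same promoters. The cyclic AMP response element TGACGTCA (3.004% of promoters of tested genes), the ATF4-C/EBP element TGATGNAAT (0.471%) and the ERR element TCAAGGTCA (0.288%) were in none of the 9. The NRF1 element (1.998%) was found in overlapping form in the further Galnt6 promoter alone. Each motif was searched on both strands. These are matches of letters in a window of 300 bases and not mapped binding sites.

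To set the 10 against gene position alone, all genes within 1 Mb of Letmd1 were taken. Of the 53, 31 passed the filter on low counts, 14 below and 17 above Letmd1, and 22 did not, of which 8 had no counts in any library. In the 31, 12 were lower and 5 higher in KO. This was 54.8% called in either direction, beside 46.0% of all genes tested, and 38.7% lower and 16.1% higher. Their median log2 fold change was −0.72, beside 0.033 over all genes and 0.021 over 485 genes tested on the rest of chromosome 15. Of those 485, 109 were higher and 108 lower. With scaling by library size alone, which moved the median of all genes to 0.44, 9 of the 31 were higher and 9 lower. The 10 neighbours are part of the 31 and were selected on these values. The other 21 genes had the same median of −0.72, with 7 lower and 1 higher, or 38.1% called beside 46.0% of all genes tested. The selection took 4 of the 5 higher and 5 of the 12 lower genes of the window, so this remainder is no independent count.

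With the selected neighbours counted, lower genes outnumbered higher ones on both sides of Letmd1. Below it, 7 of 14 were lower and 2 higher (median −0.70), and above it 5 of 17 were lower and 3 higher (median −0.72). Over all genes tested, 22.3% were lower and 23.7% higher. The neighbours, selected on these values, made up 5 of the lower and 1 of the higher genes below Letmd1. Above it they made up all 3 higher genes. The counts by side are thus no independent result. Between 1 and 2 Mb from Letmd1 the direction was the other one, with 14 of 42 genes higher and 5 lower and a median of 0.19. From 1 to 5 Mb, 18 of 81 were higher and 14 lower (median 0.081). From 5 to 20 Mb, 21 of 108 were higher and 34 lower (median −0.17). Beyond 20 Mb, 70 of 296 were higher and 60 lower (median 0.038). No test of the window was made, and these are counts and medians. At its edges, Bcdin3d (994 kb below, log2 fold change 0.14) and 6030408B16Rik (814 kb above, 1.15) were the last tested genes inside, and Nckap5l (1011 kb below, 0.81) and Krt79 (1450 kb above, −0.05) the first tested genes outside. None of these 4 genes passed the threshold.

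**Figure D3:**
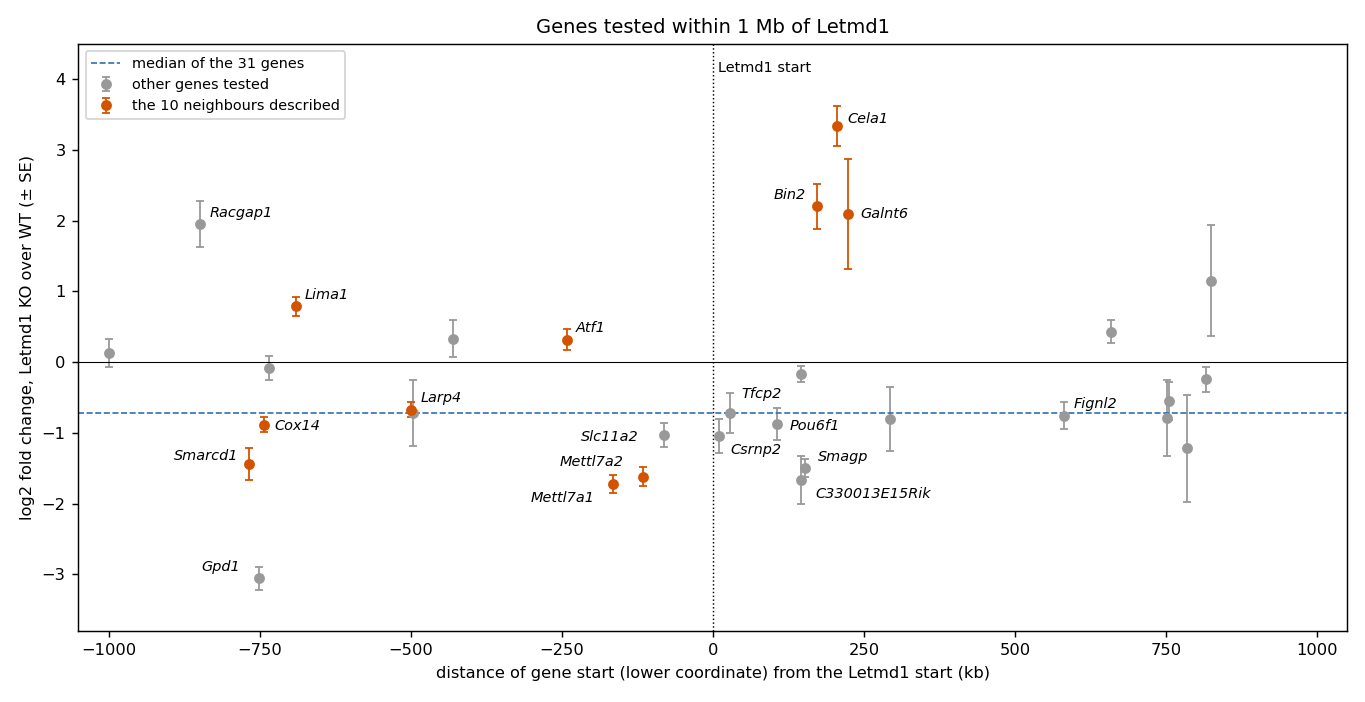
Log2 fold change, Letmd1 KO over WT, with its SE (y axis), of the 31 genes tested within 1 Mb, against the distance of the gene start from the Letmd1 start in kb (x axis). The 10 neighbours are orange and the other genes grey, and the dashed line is the median of −0.72. Bin2, Cela1 and Galnt6 stand together at 2.09 to 3.34, beside Smagp and C330013E15Rik at −1.50 and −1.67.

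The tested genes next to Letmd1 were lower. Slc11a2, an iron transporter gene 44.0 kb below, went from 46.6 ± 9.95 to 22.7 ± 1.33 CPM (log2 fold change −1.03, SE 0.17, adjusted p = 0.00103). Csrnp2, which encodes a nuclear protein, ends 405 bases from the end of Letmd1 on the opposite strand, and had 16.1, 17.8 and 18.3 CPM in WT and 5.71, 7.94 and 10.9 CPM in KO mice (log2 fold change −1.05, SE 0.24, adjusted p = 0.00577). The KO mice were all under the WT mice but spread more. Tfcp2 and Pou6f1, which encode transcription factors, come next. Tfcp2 did not pass the threshold (−0.72, SE 0.28, adjusted p = 0.0568), and Pou6f1 fell by 0.88 on the log2 scale (SE 0.22, adjusted p = 0.01). The 3 tested genes nearest on each side of Letmd1 were therefore all below 0, and 5 of these 6 passed the threshold. Mettl7a1 and Mettl7a2, which were selected on these values, are among the 5. Over all genes tested, 22.3% were lower. With scaling by library size alone, neither Pou6f1 (adjusted p = 0.103) nor Tfcp2 (0.364) passed.

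The block of higher genes at Bin2, Cela1 and Galnt6 bordered on a lower gene on the side toward Letmd1. Smagp, which encodes a small transmembrane glycoprotein and is 4136 bases from Bin2 on the same strand, had 48.1, 50.4 and 48.0 CPM in WT and 15.3, 18.5 and 17.6 CPM in KO mice. Its values were tightly grouped within each genotype, with a log2 fold change of −1.50 (SE 0.13, adjusted p = 2.8e-05). C330013E15Rik, a non-coding transcript on the same side and parted from Smagp by Dazap2 (−0.17, adjusted p = 0.233), fell by 1.67 on the log2 scale (SE 0.34, adjusted p = 0.00254). Sign thus changed from Smagp to Bin2 over 4136 bases. On the other side of the block, I730030J21Rik was not tested and Slc4a8 did not pass the threshold (−0.80, adjusted p = 0.161). Besides 4 of the 10 neighbours, the only gene called higher in the window was Racgap1, 817 kb below Letmd1, which is needed for cell division. It had 1.51, 1.91 and 1.70 CPM in WT and 9.45, 5.29 and 6.82 CPM in KO mice (log2 fold change 1.96, SE 0.33, adjusted p = 0.000844).

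**Figure D4:**
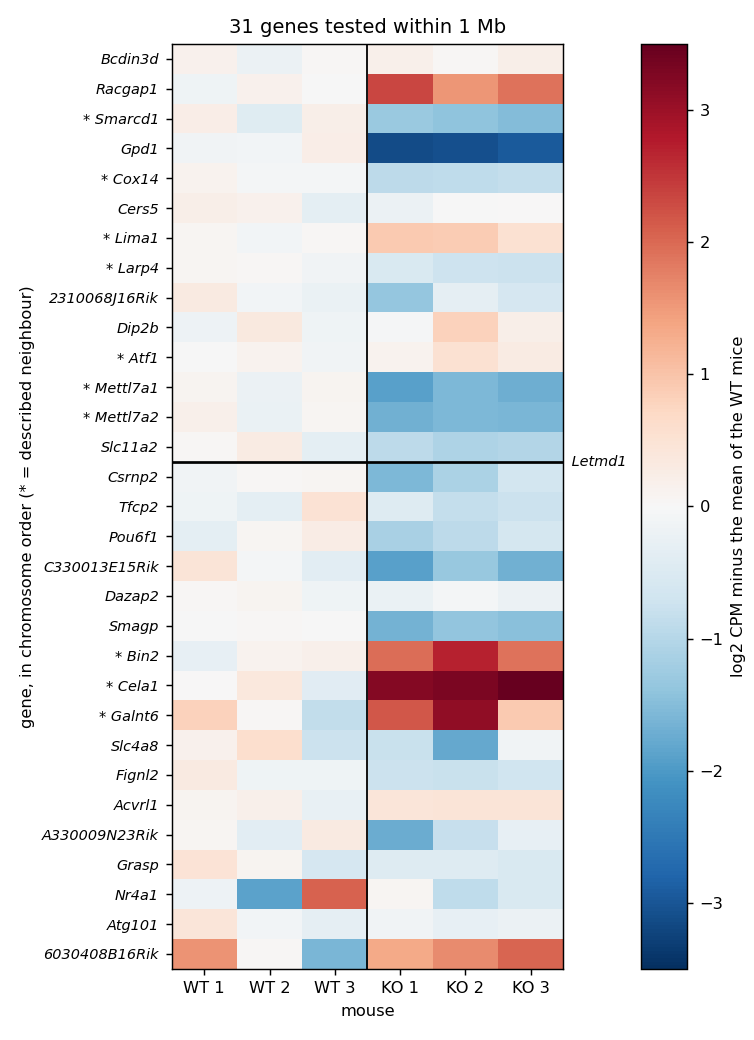
Log2 CPM minus the mean of the WT mice (colour scale) for the 31 genes tested within 1 Mb (rows, in chromosome order, asterisks marking the 10 neighbours) in each of the 6 mice (columns). The thick line marks Letmd1. Genes around it are blue in all 3 KO mice from Mettl7a1 to Pou6f1, and Bin2, Cela1 and Galnt6 are red in all 3.

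The 10 neighbours also differed in how much the mice varied within a genotype. In KO mice the coefficient of variation ran from 3.11% for Cox14 to 72.8% for Galnt6, and in WT mice from 5.62% for Lima1 to 78.0% for Galnt6. Leaving out each mouse in turn kept the direction of all 10. This followed from how the 10 were selected, since their ranges did not overlap between the genotypes. The log2 fold change then ran from −1.83 to −1.65 for Mettl7a1, from −1.75 to −1.54 for Mettl7a2, from −1.64 to −1.34 for Smarcd1, from −0.93 to −0.82 for Cox14 and from −0.74 to −0.63 for Larp4. It ran from 0.72 to 0.91 for Lima1, from 0.21 to 0.41 for Atf1, from 1.91 to 2.34 for Bin2 and from 3.17 to 3.53 for Cela1. For these 9 genes the values show only how far a single mouse moved the size of the log2 fold change.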

How the data were processed

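RNA from BAT of 3 WT and 3 Letmd1 KO mice was sequenced with QuantSeq 3′ libraries (single reads of 75 bases). The deposited files hold raw counts per gene symbol, which the authors made by aligning with Bowtie2 and counting unique and multiple alignments with bedtools (build mm10). Versions, annotation and use of strand are not given in the sources used here. The quantile normalization named in the methods is not in the deposited counts.

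Of 23282 symbols, 5588 had no counts. Genes were tested in R 4.3.3 with edgeR 4.0.16 (filterByExpr, TMM, quasi-likelihood F-test, prior count 2), with Benjamini-Hochberg adjustment over 12995 genes and a threshold of 0.05. TMM factors were 0.852 to 0.886 in WT and 1.13 to 1.17 in KO libraries. 3 counts equal 0.176 to 0.397 CPM, and this precision covers counting error only. Alternatives used library size scaling, limma 3.58.1 after quantile normalization, DESeq2 1.42.0, other filters and each mouse left out. The fits were tested on simulated data. The labels do not say whether the mice came from separate litters, so p-values measure the spread between these samples.

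Genes were placed with GENCODE vM21 (GRCm38), or RefSeq GRCm38.p6 for symbols it lacks, and distance is the gap between gene bodies. The 10 neighbours, the gene lists and the tests were chosen with earlier results of these data known, and the TATAAA search after the promoters were seen. Genes named beside the 10 were, by rule, the 3 tested genes nearest to Letmd1 on each side, up to 3 called genes of the window with the most positive and 3 with the most negative log2 fold change, and, in each family list, the extremes and the closest paralog. Coa3, Crtc3, Dazap2 and Slc4a8 were named after their values were seen.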

Additional observations from a re-analysis of the deposited data

How the results depend on the processing

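All 10 neighbours kept their direction under every alternative run (13 for each, 12 for Galnt6, which a filter of a mean of 50 counts removed). For the runs without a mouse this followed from their ranges, which did not overlap between the genotypes. With library size alone the median of all genes was 0.44, 81.2% of 7267 called genes were higher against 51.6% of 5978 in the TMM fit, and Larp4 and Cox14 were at −0.25 and −0.46, or −0.69 and −0.91 relative to that median. Within 1 Mb, 9 genes were then higher and the median was −0.30. With 0.5 Mb on either side 3 genes were higher and 8 lower, and with 2 Mb 19 were higher and 17 lower and the median turned to 0.023. Beyond the added or removed genes, the cause of these shifts was not tested. Without the 10 neighbours, which had been selected on these values, 1 was higher and 7 were lower. Quantile normalization gave 4 higher and 16 lower, and DESeq2 5 and 13. With each mouse left out in turn, 4842 to 5868 genes were called, 4 to 6 of the window were higher, 12 to 14 lower, and its median was −0.74 to −0.57. The replicate numbers gave no sign of pairing (correlations of same-numbered mice 0.069, −0.11 and −0.087), though 3 mice per genotype cannot exclude it. With a replicate block 5599 genes were called, 5 of the window higher and 12 lower, with a median of −0.67. Tfcp2 passed the threshold under quantile normalization (adjusted p = 0.0112), under DESeq2 (0.0473) and without WT replicate 2 (0.0367), and Pou6f1 did not with library size scaling (0.103). The low counts of Galnt6, Cela1 and Bin2 in WT mice limit their fold changes, and values of 2.09 for Galnt6 ran from 1.104 to 2.58 over the alternatives.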

Other observations

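Nr4a1, an immediate early gene of the window 775 kb above Letmd1, was chosen here after its values were seen. It had 225, 69 and 888 counts in WT and 262, 111 and 322 counts in KO libraries. In CPM this was 24.3, 7.32 and 115.8 in WT and 28.8, 14.7 and 18.9 in KO mice, so the WT mice alone spanned the range of the KO mice, and it did not pass the threshold (adjusted p = 0.217).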
